A study of Homo sapiens with 6 samples.

Results

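The RNA interference machinery is the set of proteins that makes small RNAs, loads them and uses them to silence messenger RNAs. It was followed here as 10 genes, AGO1, AGO2, AGO3, AGO4, DICER1, DROSHA, DGCR8, XPO5, TARBP2 and PRKRA, among 19775 genes named on the array. A probe set, the group of short probes that reads 1 transcript region, was taken where the platform annotation gives it only that gene's symbol. This gave 27 probe sets for 9 of the 10 genes, of 54613 probe sets in all. DGCR8, the RNA-binding partner of DROSHA, has 4 probe sets that also carry a microRNA symbol, so no value is given for it, and 3 further AGO2 probe sets were left aside because they carry another symbol too.

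Messenger RNA was measured on 6 HG-U133 Plus 2.0 arrays from cells labelled HepG2, a human liver tumour line. The cells on 3 arrays had been transfected with an siRNA against RNF43, a membrane ubiquitin ligase that restrains Wnt signalling, and those on the other 3 with a negative control siRNA. Lipofectamine 2000, a cationic lipid, was the carrier, RNA was taken after 48 h, and all arrays carry the same label of cell line with no other agent or allele named. The 3 arrays of a group are called biological replicates, and nothing says that they came from separate cultures or days. The p-values therefore rest on array-to-array spread that may be technical.

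In the textbook pathway, DROSHA with DGCR8 cuts a hairpin out of a primary microRNA transcript in the nucleus. XPO5 carries the hairpin to the cytoplasm, where DICER1 with TARBP2 or PRKRA trims it to a duplex. An Argonaute protein keeps 1 strand of the duplex as its guide and pairs it, mainly through the seed at bases 2 to 8, with messenger RNAs. A synthetic siRNA enters at the last step, so both groups of cells had been given a substrate of this machinery. The 4 strands given to the cells are shown because they are what the Argonautes of the 2 groups were offered. Their seeds are in capitals.

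RNF43 siRNA, antisense: aUAAUAGCuuucuguucugtt
RNF43 siRNA, sense: cAGAACAGaaagcuauuautt
control siRNA, antisense: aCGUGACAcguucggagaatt
control siRNA, sense: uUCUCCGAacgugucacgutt

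In each duplex the first 19 bases of the strands were exact complements, followed by an overhang of 2 bases. Guanine and cytosine made up 31.6% of the RNF43 siRNA core and 52.6% of the control siRNA core. Of 2370 mature human microRNAs in the RefSeq table (GRCh38.p14), 0 share the seed of either antisense strand or of the control sense strand, and 1 shares that of the RNF43 siRNA sense strand. It is printed beside that strand's seed for comparison, again with bases 2 to 8 in capitals. Which strand was loaded was not measured.

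hsa-miR-4773: cAGAACAGgagcauagaaaggc

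The labels were checked before the members. RNF43 had log2 signals of 8.19, 8.22 and 8.41 on the RNF43 siRNA arrays, against 7.65, 7.79 and 7.45 on the control siRNA arrays. The targeted transcript was thus 1.56-fold higher in the arrays labelled RNF43 siRNA (limma adjusted p = 0.0098, exact two-sided permutation p = 0.1, the smallest that 3 against 3 arrays can give), which goes against the label. With both arrays numbered 3 left out, the difference was 0.48 (adjusted p = 0.0535). Directions below follow the label on the array, and no loss of the target was measured. The cell line label was not borne out by its secreted proteins either. ALB, APOA1, TTR, SERPINA1 and FGB, which encode plasma proteins that define hepatocytes, had group means of 2.97 to 5.19 in both groups, below the level of 5.83 that was set as the limit for testing. Of 9 hepatocyte markers read, 3 passed that limit, namely AFP and the keratin genes KRT8 and KRT18, against 6 of 9 fibroblast and stellate cell markers, 0 of 5 leukocyte markers and 1 of 5 endothelial markers.

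Of the 9 members with a probe set, all passed the limit and were tested by their brightest probe set. On the arrays labelled RNF43 siRNA, 4 members were higher, 2 were lower and 3 did not pass (limma, adjusted p under 0.05). DICER1 and AGO4 rose by about the same factor, 1.57-fold and 1.595-fold, and TARBP2 and PRKRA by less, while AGO3 and DROSHA fell. AGO1, AGO2 and XPO5 did not pass. Over all 11853 genes tested, 22.6% passed, 11.5% higher and 11.1% lower. The groups did not overlap for the same 6 members, 4 higher and 2 lower, against 38.9% of all tested genes, 19.1% higher and 19.8% lower. The median log2 difference of the 9 members was 0.23, against -0.0028 for all tested genes. This count is a description, with no test over the list. It was 2 to 5 members when any 1 array was left out, 2 of them without control siRNA replicate 1 and 3 without RNF43 siRNA replicate 1, RNF43 siRNA replicate 2 or control siRNA replicate 2.

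**Figure D1:**
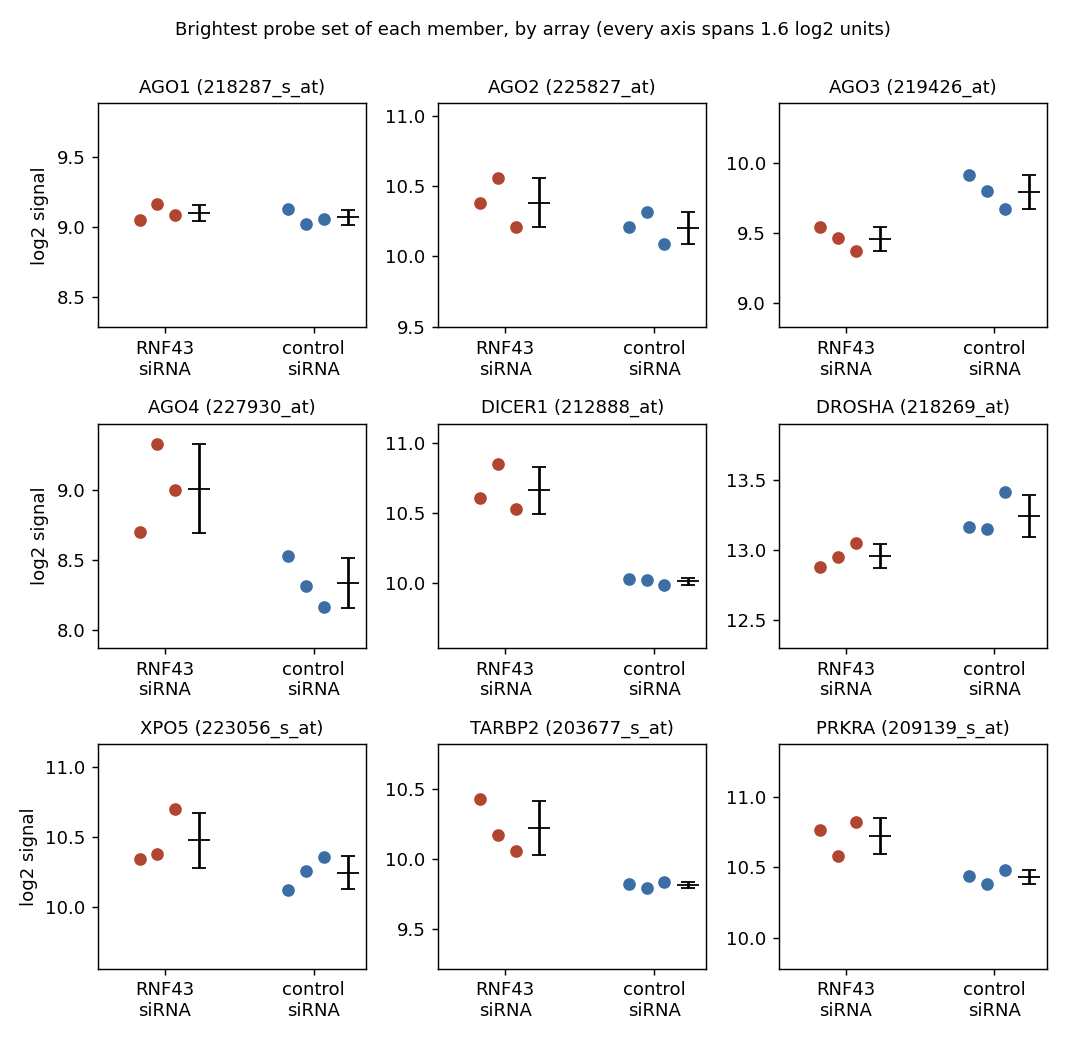
Log2 signal (vertical axis) of the brightest probe set of each of the 9 members on the 3 RNF43 siRNA arrays (red, left) and the 3 control siRNA arrays (blue, right), with the mean and SD beside each group. The groups do not overlap for AGO3, AGO4, DICER1, DROSHA, TARBP2 and PRKRA, and the DICER1 control arrays lie within 9.99 to 10.03.

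The nuclear step was read by DROSHA, the RNase III enzyme of the Microprocessor. DROSHA had log2 signals of 12.88, 12.95 and 13.05 on the RNF43 siRNA arrays, against 13.16, 13.14 and 13.41 on the control siRNA arrays. All 3 RNF43 siRNA values lay below all 3 control values, with the narrowest gap between RNF43 siRNA replicate 3 and control siRNA replicate 2. DROSHA averaged 12.96 ± 0.09 on RNF43 siRNA arrays and 13.24 ± 0.15 on control siRNA arrays (SD, n = 3 each). It fell 1.22-fold (limma adjusted p = 0.0335), which is a log2 difference of -0.28 with an SE of 0.08. This was a small change close to the threshold. The call was lost without RNF43 siRNA replicate 1 or 2 or control siRNA replicate 1 or 3, and in the fit over all 27306 tested probe sets in place of genes the adjusted p was 0.0532. The call was also lost in the fit on means of each gene's probe sets (adjusted p = 0.0602), although DROSHA has 1 probe set and its difference was again -0.28.

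XPO5, exportin 5, which carries hairpin precursors through the nuclear pore, was read by 3 probe sets that did not give 1 size. On the brightest, XPO5 had log2 signals of 10.34, 10.38 and 10.70 on the RNF43 siRNA arrays, against 10.12, 10.26 and 10.36 on the control siRNA arrays. The ranges overlap, and the log2 difference of 0.23 (95% confidence interval -0.01 to 0.47, limma adjusted p = 0.163) did not pass. Another XPO5 probe set, 223055_s_at, had log2 signals of 9.02, 8.998 and 8.75 on the RNF43 siRNA arrays, against 8.40, 8.39 and 8.09 on the control siRNA arrays, with no overlap. It rose 1.55-fold (adjusted p = 0.0139 over all probe sets, log2 difference 0.63 with an SE of 0.13), a call lost without RNF43 siRNA replicate 1 or 2. The remaining probe set, 223057_s_at, had a log2 difference of 0.16 that did not pass (adjusted p = 0.303), although its groups did not overlap. Read by the average over its probe sets, XPO5 passed as higher (log2 difference 0.34, adjusted p = 0.0199). The difference between its probe sets was not tested.

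DICER1, the cytoplasmic RNase III enzyme that cuts hairpins and long double-stranded RNA into duplexes, had the smallest p of the members. It had log2 signals of 10.61, 10.85 and 10.53 on the RNF43 siRNA arrays, against 10.03, 10.02 and 9.99 on the control siRNA arrays. The control arrays were nearly level and every RNF43 siRNA array was above them, replicate 2 the furthest. DICER1 averaged 10.66 ± 0.17 on RNF43 siRNA arrays and 10.01 ± 0.02 on control siRNA arrays (SD, n = 3 each). The rise was 1.57-fold with a 95% confidence interval of 1.36 to 1.81 (limma adjusted p = 8.70e-04, log2 difference 0.65 with an SE of 0.09). Of all genes tested, 7.44% had a difference at least as large in either direction. The call held when any 1 array was left out, with log2 differences of 0.56 to 0.72.

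The other tested DICER1 probe sets gave smaller differences. Probe set 213229_at had log2 signals of 9.03, 9.21 and 9.43 on the RNF43 siRNA arrays, against 9.05, 8.71 and 8.84 on the control siRNA arrays, so that RNF43 siRNA replicate 1 fell within the control range. Its log2 difference of 0.36 did not pass (adjusted p = 0.115 over all probe sets), and neither did the 0.16 of 206061_s_at (adjusted p = 0.548). A further 3 DICER1 probe sets lay below the limit for testing, with group means of 2.27 to 5.62. The mean of the gene's 3 tested probe sets, an alternative chosen after seeing the data, still passed at a log2 difference of 0.39 (adjusted p = 0.0174), while the mean of all 6 did not (0.37, adjusted p = 0.409).

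TARBP2 and PRKRA encode related double-stranded RNA-binding proteins, TRBP and PACT, that partner DICER1. In other settings they act in opposite ways on the antiviral kinase EIF2AK2, which TRBP inhibits and PACT activates. TARBP2 had log2 signals of 10.43, 10.17 and 10.05 on the RNF43 siRNA arrays, against 9.82, 9.79 and 9.83 on the control siRNA arrays. The groups did not overlap and the control arrays were close together, while RNF43 siRNA replicate 1 stood highest. TARBP2 averaged 10.22 ± 0.19 on RNF43 siRNA arrays and 9.81 ± 0.02 on control siRNA arrays (SD, n = 3 each). It rose 1.32-fold (limma adjusted p = 0.0171, log2 difference 0.40 with an SE of 0.10). The call was lost without RNF43 siRNA replicate 1 or control siRNA replicate 1 or 2, at adjusted p of 0.0512 to 0.0598, and when its probe sets were averaged (adjusted p = 0.15). Its other probe set, 239389_at, lay just below the limit for testing with a mean of 5.79 over all arrays. It stood at 5.99 on RNF43 siRNA arrays and 5.59 on control siRNA arrays, a difference of 0.40. The groups overlapped on this probe set, and it did not pass in the fit with no filter (limma adjusted p = 0.692).

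PRKRA had log2 signals of 10.76, 10.58 and 10.83 on the RNF43 siRNA arrays, against 10.44, 10.38 and 10.48 on the control siRNA arrays. The lowest RNF43 siRNA array, replicate 2, was still above the highest control array. PRKRA averaged 10.72 ± 0.13 on RNF43 siRNA arrays and 10.43 ± 0.05 on control siRNA arrays (SD, n = 3 each) and rose 1.22-fold (limma adjusted p = 0.0321, log2 difference 0.29 with an SE of 0.08). Its other probe set did not pass. Probe set 237107_at had log2 signals of 7.31, 7.57 and 6.60 on the RNF43 siRNA arrays, against 7.22, 7.24 and 7.20 on the control siRNA arrays, a log2 difference of -0.06 (adjusted p = 0.91). The PRKRA call was lost without RNF43 siRNA replicate 1 or 3 or control siRNA replicate 1 or 2. It was also lost without the intensity trend (adjusted p = 0.0717) and when its probe sets were averaged (log2 difference 0.12, adjusted p = 0.58).

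The Argonautes hold the guide strand. AGO2 is the human Argonaute with strong slicer activity, which cuts a fully paired target and is the effector of siRNA knockdown. AGO2 had log2 signals of 10.38, 10.56 and 10.21 on the RNF43 siRNA arrays, against 10.21, 10.32 and 10.09 on the control siRNA arrays. The ranges overlap. The log2 difference of 0.18 did not pass (95% confidence interval -0.05 to 0.41, limma adjusted p = 0.25), nor did it under any of 19 alternatives, where it lay between 0.09 and 0.27. The interval allows a rise of up to 1.33-fold.

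AGO1, AGO3 and AGO4, which are better known for binding microRNAs than for slicing, are neighbours on chromosome 1 in the order AGO4, AGO1, AGO3, and their leading probe sets differed in direction. AGO4 had log2 signals of 8.70, 9.33 and 8.999 on the RNF43 siRNA arrays, against 8.52, 8.31 and 8.16 on the control siRNA arrays. All RNF43 siRNA arrays were above all control arrays, by a small margin for RNF43 siRNA replicate 1. AGO4 averaged 9.01 ± 0.32 on RNF43 siRNA arrays and 8.33 ± 0.18 on control siRNA arrays (SD, n = 3 each) and rose 1.595-fold (limma adjusted p = 0.0138, log2 difference 0.67 with an SE of 0.16). Without RNF43 siRNA replicate 2 the difference was 0.51 and did not pass (adjusted p = 0.0613). Of all genes tested, 6.85% had a difference at least as large. The other 3 AGO4 probe sets lay below the limit for testing. The first 2 of these, 219190_s_at and 222842_at, differed by 0.38 and 0.44 in the same direction, and 1569408_at by -1.61 with a mean of 2.75 on RNF43 siRNA arrays and 4.36 on control siRNA arrays. The groups overlapped on all 3, and none passed in the fit with no filter (limma adjusted p = 0.718, 0.85 and 0.417). With all 4 averaged, the AGO4 difference was -0.03 (adjusted p = 0.971).

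AGO3 had log2 signals of 9.54, 9.47 and 9.37 on the RNF43 siRNA arrays, against 9.92, 9.80 and 9.67 on the control siRNA arrays. Every RNF43 siRNA array was below every control siRNA array. AGO3 averaged 9.46 ± 0.08 on RNF43 siRNA arrays and 9.80 ± 0.12 on control siRNA arrays (SD, n = 3 each) and fell 1.26-fold (limma adjusted p = 0.0286, log2 difference -0.34 with an SE of 0.10). The other 3 tested AGO3 probe sets had log2 differences of -0.20, 0.01 and 0.03 and did not pass, and their mean with the brightest gave -0.12 (adjusted p = 0.705). The call was also lost with each array centred on its median (adjusted p = 0.0758) and without the intensity trend (adjusted p = 0.05245). The same held without RNF43 siRNA replicate 2 or 3 or control siRNA replicate 1 or 2.

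Among tested probe sets, the differences of those of AGO1 spread the most within a member, over 0.83 log2 units. Its brightest probe set, 218287_s_at, had log2 signals of 9.05, 9.16 and 9.08 on the RNF43 siRNA arrays, against 9.13, 9.02 and 9.05 on the control siRNA arrays, with a log2 difference of 0.03 (95% confidence interval -0.18 to 0.24, limma adjusted p = 0.847). Probe set 228120_at had 8.83, 8.90 and 8.87 on the RNF43 siRNA arrays, against 8.54, 8.43 and 8.56 on the control siRNA arrays, a rise of 1.28-fold that passed narrowly (adjusted p = 0.0483 over all probe sets) and was lost whichever array was left out. Probe set 222576_s_at had 6.25, 6.14 and 6.64 on the RNF43 siRNA arrays, against 6.69, 6.78 and 6.97 on the control siRNA arrays. Its groups did not overlap in the opposite direction, with a log2 difference of -0.47 that did not pass (adjusted p = 0.221). The fourth, 239036_at, lay below the limit for testing. A name ending in _s_at marks probes that several transcripts share. With those set aside, AGO1 was read by 228120_at and passed as higher at the gene level (adjusted p = 0.0295). Which AGO1 transcripts each probe set reads was not analysed here.

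**Figure D2:**
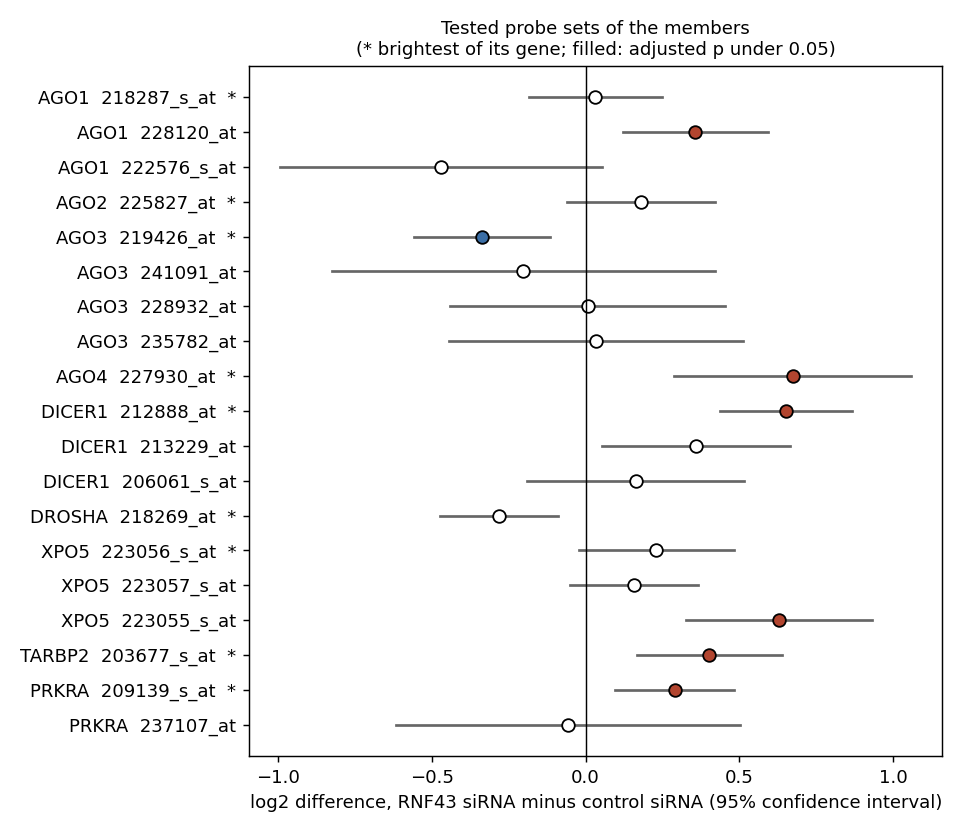
Log2 difference, RNF43 siRNA minus control siRNA (horizontal axis), with its 95% confidence interval for the 19 tested probe sets of the members, filled where the adjusted p over all probe sets was under 0.05. AGO1 probe sets lie on both sides of 0, and those of DICER1 and XPO5 all lie above it with sizes from 0.16 to 0.65.

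Counted by probe set, 6 of the 19 tested probe sets rose, 1 fell and 12 did not pass, against 15.5% of all tested probe sets passing in either direction, 7.9% higher and 7.55% lower. The groups did not overlap for 10 of the 19, 7 higher and 3 lower, against 33.8% of all tested probe sets, 17% higher and 16.8% lower. Whichever array was left out, the count that passed was 2 to 4. The 6 that rose were those of DICER1, AGO4, TARBP2 and PRKRA named as brightest, with 228120_at of AGO1 and 223055_s_at of XPO5. In this fit PRKRA passed at limma adjusted p = 0.04997, a call lost in 9 of 16 alternatives. The calls of AGO4 (0.0279) and TARBP2 (0.0314) were lost in 6 and 5, and that of DICER1 in 0. The 1 that fell, of AGO3, passed at 0.048 and was lost in 8. The 8 untested probe sets, of AGO1, AGO4, DICER1 and TARBP2, were fitted only in the alternative with no filter. None of them passed there (limma adjusted p = 0.417 to 0.972).

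**Figure D3:**
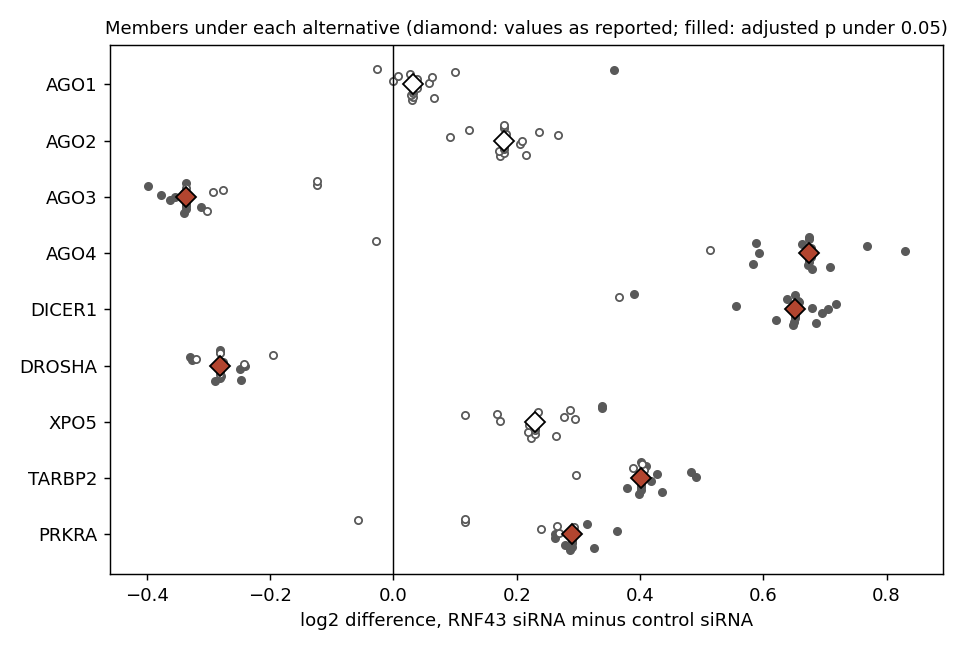
Log2 difference, RNF43 siRNA minus control siRNA (horizontal axis), of each member as reported (diamond) and under each alternative processing (circles), filled where the adjusted p was under 0.05. The DICER1 values lie between 0.37 and 0.72 and the AGO2 values between 0.09 and 0.27, and the points of AGO1, AGO4 and PRKRA that lie below 0 did not pass.

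Promoter windows of the 3 neighbouring Argonaute genes are given because these genes share a locus while their brightest probe sets differed in direction. That of AGO4 was higher and that of AGO3 lower, and neither call held when probe sets were averaged. Whether the windows bear on these differences was not tested. Windows of 250 bases before to 50 after a start were taken from RefSeq (GRCh38.p14, plus strand), and each lies inside its gene's annotated span, downstream of the outermost start, for AGO4 at chr1:35807766-35808065, for AGO1 at chr1:35882959-35883258 and for AGO3 at chr1:35930855-35931154. Capitals mark the GC box GGGCGG and the CCAAT box CCAAT on either strand.

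AGO4: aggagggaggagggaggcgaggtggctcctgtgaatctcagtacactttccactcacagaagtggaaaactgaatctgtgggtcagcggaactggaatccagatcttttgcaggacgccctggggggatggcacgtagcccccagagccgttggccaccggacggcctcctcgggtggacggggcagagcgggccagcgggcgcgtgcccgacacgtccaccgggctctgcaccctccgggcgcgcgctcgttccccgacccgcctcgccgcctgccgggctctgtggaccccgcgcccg
AGO1: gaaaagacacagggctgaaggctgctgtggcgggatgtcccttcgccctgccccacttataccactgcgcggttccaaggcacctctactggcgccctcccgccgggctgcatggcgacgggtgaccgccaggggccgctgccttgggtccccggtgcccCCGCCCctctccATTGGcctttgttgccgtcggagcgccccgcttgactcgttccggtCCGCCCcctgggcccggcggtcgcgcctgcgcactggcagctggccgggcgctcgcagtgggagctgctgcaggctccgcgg
AGO3: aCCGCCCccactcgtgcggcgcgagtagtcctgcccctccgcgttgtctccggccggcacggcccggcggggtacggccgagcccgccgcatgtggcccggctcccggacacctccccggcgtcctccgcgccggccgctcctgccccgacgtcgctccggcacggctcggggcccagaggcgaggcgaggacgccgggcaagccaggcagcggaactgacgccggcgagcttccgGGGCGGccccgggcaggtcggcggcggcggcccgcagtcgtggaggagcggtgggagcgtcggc

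All 3 windows are rich in guanine and cytosine, at 69.0% for AGO4, 72.3% for AGO1 and 80.0% for AGO3, against a median of 58.7% over 35116 promoter windows. AGO3 holds 50 CG pairs, AGO1 30 and AGO4 29, against a median of 14 over all windows. The GC box occurs 2 times in AGO1 and in AGO3 and is not in the AGO4 window, while 45.0% of all windows hold it. The CCAAT box occurs 1 time in AGO1 and in neither neighbour, and 34.6% of all windows hold it. Windows were matched by symbol for 9 members, 17 windows in all. These 9 include DGCR8, which has no expression value here, and leave out AGO2. None of the 17 windows holds TATAAA (the TATA box, in 11.5% of all windows) or TTTCCCGC (an E2F motif, in 1.63%) on either strand.

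Genes that work with the members were read from 10 lists. Of 122 tested genes in these lists, 13 rose and 13 fell, 21.3% in all, a share near the 22.6% of all tested genes. Of 15 tested genes of the GW182 proteins and of deadenylation, 1 rose and 1 fell, with a median log2 difference of 0.07. TNRC6A, a GW182 protein that links Argonaute to the deadenylases, rose 1.18-fold (limma adjusted p = 0.047), a call lost in 10 of 19 alternatives, among them leaving out any 1 RNF43 siRNA array or control siRNA replicate 1 or 2. CNOT3, a subunit of the CCR4-NOT deadenylase, fell 1.498-fold (log2 difference -0.58, adjusted p = 0.0118), and did not pass with both arrays numbered 3 left out (adjusted p = 0.0508). PAN3 and CNOT11 had log2 differences of -0.21 and 0.19 that did not pass as reported, but did in 4 and 3 of 19 alternatives. Of 17 genes of decapping and decay from the 5' end, 0 rose and 2 fell, with a median of -0.08. These were LSM7, of the ring that binds deadenylated tails, at 1.25-fold (adjusted p = 0.01004) and DCP1B, a decapping cofactor, at 1.45-fold (adjusted p = 0.01125). DCP2, the decapping enzyme, and DCP1A had log2 differences of 0.26 and -0.21 that did not pass as reported, but did in 5 and 1 of 19 alternatives.

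Upstream, 1 of 17 tested Microprocessor partners and regulators of primary transcripts rose and 2 fell, with a median log2 difference of 0.06. Over all tested genes, 11.5% rose and 11.1% fell. NCBP1, the large cap-binding subunit, fell 1.20-fold (limma adjusted p = 0.0251) and ADAR, an adenosine deaminase of double-stranded RNA, 1.17-fold (adjusted p = 0.0282). ADARB1, a second such deaminase, rose 1.25-fold (adjusted p = 0.0254). NCBP2 had a log2 difference of 0.32 that did not pass as reported (adjusted p = 0.0582), but passed as higher in 7 of 19 alternatives. The NCBP1 call was lost without RNF43 siRNA replicate 2 or 3 or control siRNA replicate 1 or 2, that of ADAR without any of these or control siRNA replicate 3, and that of ADARB1 without any array but RNF43 siRNA replicate 3. With their probe sets averaged, ADARB1 had a log2 difference of 0.02 (adjusted p = 0.981) and NCBP1 one of -0.08 (adjusted p = 0.825), while ADARB1 gave 1.36 with probe sets named _x_at or _s_at set aside. LIN28A and LIN28B, which block let-7 maturation, lay below the limit for testing. In the Ran cycle that drives XPO5, 1 of 6 genes rose and 0 fell, against the same shares of all tested genes. This was RANBP2, a nucleoporin of the cytoplasmic face, at 1.32-fold (log2 difference 0.40, adjusted p = 0.00212), while RAN, XPO1 and RANBP1 had log2 differences of 0.09, 0.14 and -0.04. RAN passed as higher when its probe sets were averaged (0.26, adjusted p = 0.0164). It also did with probe sets named _x_at or _s_at set aside (0.43, limma adjusted p = 6.34e-04). XPO1 passed as higher with array weights (0.19, adjusted p = 0.0469), but its averaged probe sets gave -0.32, which did not pass.

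Of 10 tested chaperones that open Argonaute for loading, FKBP5, a co-chaperone of HSP90, was the 1 that rose (1.41-fold, limma adjusted p = 0.0107), and 0 fell. HSP90AA1 and HSP90AB1 had log2 differences of -0.14 and -0.13 and DNAJA2 -0.22, none of which passed as reported. HSP90AA1 passed as lower in 3 of 19 alternatives, among them with probe sets named _x_at or _s_at set aside (-0.35, adjusted p = 0.036). HSP90AB1 and DNAJA2 passed as lower in 1 each. Of 13 tested genes of small RNA tailing and turnover, 2 rose and 2 fell. For this list and the chaperones, the shares of all tested genes were 11.5% risen and 11.1% fallen. TSN, translin, which with TSNAX forms the nuclease that clears the passenger strand, had log2 signals of 12.83, 12.91 and 12.92 on the RNF43 siRNA arrays, against 11.62, 11.60 and 11.91 on the control siRNA arrays. It rose 2.26-fold (adjusted p = 1.39e-05, log2 difference 1.18 with an SE of 0.09). The averaged TSN probe sets gave a log2 difference of 0.75, and TSNAX had one of 0.06. SND1, a Tudor-domain nuclease linked to microRNA decay, had 10.39, 10.19 and 10.34 on the RNF43 siRNA arrays, against 11.12, 10.75 and 10.89 on the control siRNA arrays, and fell 1.52-fold (adjusted p = 0.00221). ERI1, a 3' exonuclease that trims siRNAs, rose 1.26-fold (adjusted p = 0.0356) and TUT7, a uridylyl transferase, fell 1.24-fold (adjusted p = 0.0384). The ERI1 call was lost without RNF43 siRNA replicate 1 or 3 or control siRNA replicate 1 or 2, and that of TUT7 without any array but RNF43 siRNA replicate 3.

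Of 9 tested genes of proteins that bind or modify Argonaute, 3 rose and 2 fell, against 11.5% and 11.1% of all tested genes. The LIM proteins WTIP, AJUBA and LIMD1, which bind Argonaute and GW182 proteins and also act in Hippo signalling, were the 3 that rose, 2.35-fold, 1.48-fold and 1.27-fold (limma adjusted p = 0.00821, 2.02e-04 and 0.0299). The LIMD1 call was lost without RNF43 siRNA replicate 2 or control siRNA replicate 1 or 2. The WTIP control mean of 6.00 lay just above the limit for testing. P4HB and P4HA1, subunits of the prolyl hydroxylase that acts on collagen and has been linked to AGO2, fell 1.51-fold and 1.38-fold (adjusted p = 7.12e-05 and 0.00441). With probe sets averaged, the calls of P4HA1 and LIMD1 were lost (log2 differences -0.24 and 0.16). Fibroblast and stellate cell markers also moved, with 0 of 6 tested risen and 4 fallen, against 11.5% of all tested genes risen and 11.1% fallen. COL3A1, ACTA2, FAP and DCN fell, with log2 differences of -1.34, -0.99, -0.57 and -0.54, while COL1A1, at -0.20, did not pass. The summed linear signal of the 9 such markers read was 12500 to 13590 on RNF43 siRNA arrays and 15920 to 16050 on control siRNA arrays. Most of this sum on every array was LUM, the collagen-binding proteoglycan lumican, which had mean log2 signals of 13.17 on RNF43 siRNA arrays and 13.36 on control siRNA arrays and did not pass (log2 difference -0.18, adjusted p = 0.0926). The sum of the 9 hepatocyte markers read, carried by keratins, was 22320 to 27980 on RNF43 siRNA arrays and 17090 to 17960 on control siRNA arrays. KRT8 and KRT18 rose (log2 differences 0.72 and 0.41), while AFP went the other way and did not pass (-0.60, limma adjusted p = 0.0878). The part of either marker group in the changes of the members was not tested. On bulk arrays fewer cells of a type and less RNA per cell cannot be told apart.

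Sensors of double-stranded RNA, the other cellular readers of such duplexes, gave 0 risen and 2 fallen of 9 tested, with a median log2 difference of -0.19. Over all tested genes, 11.5% rose and 11.1% fell, 22.6% in either direction. OAS3 and OAS1, synthetases that activate RNase L, fell 1.35-fold each (limma adjusted p = 0.00465 and 0.0123), of which OAS3 did not pass when its probe sets were averaged and OAS1 did not without RNF43 siRNA replicate 1 (adjusted p = 0.052). RIGI and OAS2 had log2 differences of -0.19 and -0.83 that did not pass as reported, and EIF2AK2, the kinase bound by TRBP and PACT, one of -0.06. OAS2 passed as lower in 1 of 18 alternatives, the replicate block (limma adjusted p = 0.0295). Of the PIWI genes, the germline branch of the Argonaute family, PIWIL2 was the 1 tested, with a log2 difference of -0.24 that did not pass (adjusted p = 0.471).

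**Figure D4:**
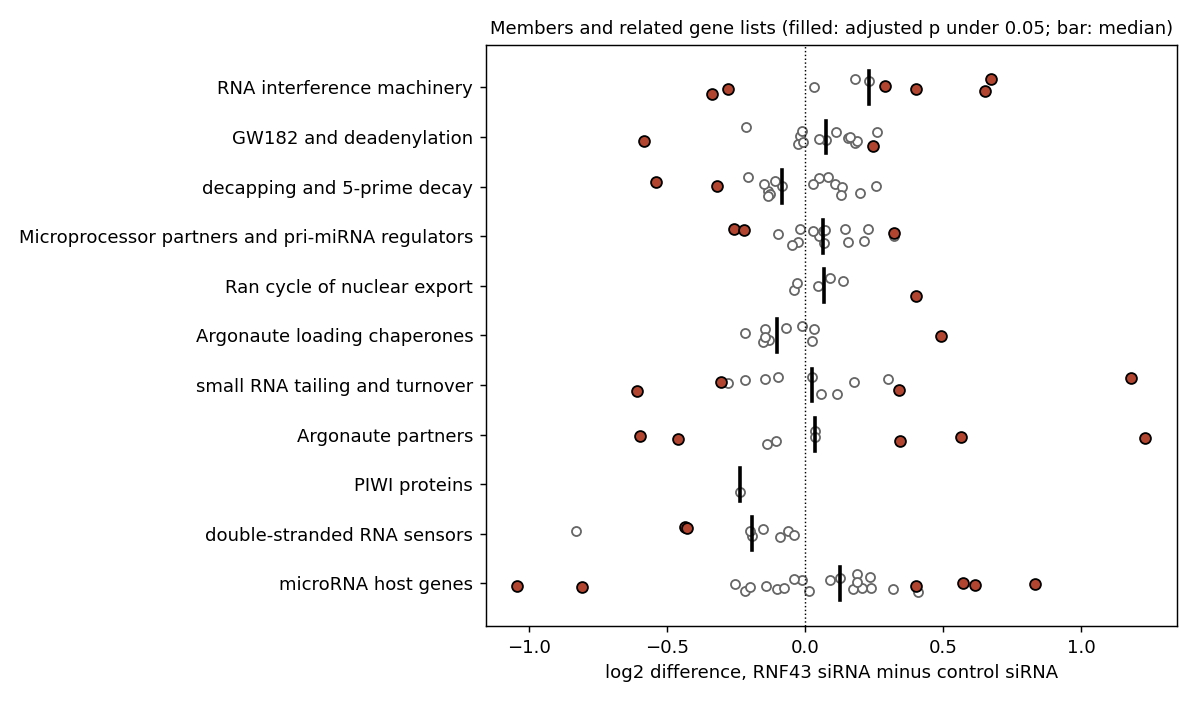
Log2 difference, RNF43 siRNA minus control siRNA (horizontal axis), of the 9 tested members and of the tested genes of 10 related lists, filled where the adjusted p was under 0.05, with each median as a bar. The member median lies at 0.23, and the list medians lie between -0.24 and 0.13.

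The arrays do not measure mature microRNAs, but they read genes that carry microRNA hairpins in their introns or transcripts. Of 25 tested host genes, 4 rose and 2 fell, with a median log2 difference of 0.13. The shares over all tested genes were 11.5% risen and 11.1% fallen, 22.6% together. The mature strands are shown for the hosts that passed, and for a neighbour in the same seed family, since mature strands of this kind are products of the pathway. Capitals mark the seed.

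MEST (chromosome 7), hsa-miR-335-5p: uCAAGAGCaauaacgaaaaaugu
MCM7 (chromosome 7), hsa-miR-106b-5p: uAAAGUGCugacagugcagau
MCM7 (chromosome 7), hsa-miR-25-3p: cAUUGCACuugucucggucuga
PANK3 (chromosome 5) and PANK2 (chromosome 20), hsa-miR-103a-3p: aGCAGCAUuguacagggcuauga
PANK1 (chromosome 10), hsa-miR-107: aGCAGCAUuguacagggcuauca
COPZ2 (chromosome 17), hsa-miR-152-3p: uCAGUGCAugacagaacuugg
COPZ1 (chromosome 12), hsa-miR-148b-3p: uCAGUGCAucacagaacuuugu
MIR31HG (chromosome 9), hsa-miR-31-5p: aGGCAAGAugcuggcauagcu

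MEST, an imprinted gene, had log2 signals of 11.54, 11.49 and 11.80 on the RNF43 siRNA arrays, against 10.59, 10.75 and 11.00 on the control siRNA arrays, and rose 1.78-fold (limma adjusted p = 6.67e-04). MCM7, a subunit of the replicative helicase, rose 1.49-fold (adjusted p = 3.80e-04). The pantothenate kinase genes PANK3 and PANK2 rose 1.53-fold and 1.32-fold (adjusted p = 3.80e-04 and 0.00371), the PANK2 call being lost when its probe sets were averaged (log2 difference 0.01), and PANK1, the host of the same seed GCAGCAU, had a log2 difference of 0.01. COPZ2, a coatomer subunit, had log2 signals of 8.11, 8.01 and 7.86 on the RNF43 siRNA arrays, against 8.85, 8.77 and 8.78 on the control siRNA arrays, and fell 1.75-fold (adjusted p = 9.03e-04). With its probe sets averaged the log2 difference was -1.67, in place of -0.81, and did not pass (adjusted p = 0.0657). Its paralogue COPZ1, whose microRNA has the same seed CAGUGCA, had a log2 difference of -0.08. MIR31HG, a long noncoding RNA gene, had 6.50, 6.63 and 6.66 on the RNF43 siRNA arrays, against 7.47, 7.63 and 7.82 on the control siRNA arrays, and fell 2.06-fold (adjusted p = 0.00278).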

How the data were processed

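The values are log2 signals that the authors deposited, made with MAS5 per the submitters' processing notes, which name no version or scaling target. Base 2 was inferred because linear means trimmed by 2% then differ little between arrays (497.03 to 497.23). The values were used without rescaling. MAS5 subtracts mismatch signal, so dim probe sets vary most. Median log2 signals were 5.89 to 6.02 over 54613 probe sets, and the number of arrays limits the precision.

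Groups came from the sample titles. Of the probe sets, 41091 named 1 gene and 1801 several, and names followed RefSeq symbols. A gene was read by its brightest probe set over the 6 arrays and tested if this mean ranked within the top 50% of probe sets (over 5.83 in log2). The comparison used limma 3.58.1 under R 4.3.3 (intensity trend, two-sided, Benjamini-Hochberg over 11853 genes, or over 27306 probe sets where stated, threshold 0.05). Members, lists and rules for named genes were chosen with earlier results of these data known. Named in each list were up to 4 tested genes with the smallest p and members that moved against them. COPZ1, PANK1, PANK2, MIR31HG, TSNAX, EIF2AK2, LIMD1 and the LIN28 genes were picked with their values in view. The fit was tested on simulated data. The alternatives covered normalization, added signal, filters, the variance model, weights per array, which probe sets stand for a gene, a replicate block and leaving out arrays.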

Additional observations from a re-analysis of the deposited data

How the results depend on the processing

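DICER1 passed in 18 of 19 alternatives and AGO4 in 17, TARBP2 in 14 of 18, DROSHA in 12 of 19, and AGO3 and PRKRA in 11, while AGO2 passed in 0. Of 9 members, 3 passed as higher and 0 as lower without the intensity trend, and leaving out 1 array gave 2 to 5. With the mean of all probe sets of a gene, in which dim probe sets count as much as bright ones, 1 passed. This was XPO5 (limma adjusted p = 0.0199), and all 6 calls of the report were lost (adjusted p = 0.705 for AGO3, 0.971 for AGO4, 0.409 for DICER1, 0.0602 for DROSHA, 0.15 for TARBP2 and 0.58 for PRKRA). With no filter, 4 of the members' 27 probe sets passed. Of the 19 tested as reported, 3 passed without the trend and 2 to 4 with 1 array left out. Over all genes the count was 1536 with the mean of probe sets, 1370 at the stricter threshold of 0.01 and 1739 to 2653 with 1 array left out. Over all probe sets it was 2787 without the trend, 1764 at 0.01 and 2230 to 4462 with 1 array left out. With that mean CNOT3, FKBP5, P4HA1 and COPZ2 had log2 differences of -0.68, 0.67, -0.24 and -1.67 and did not pass (limma adjusted p = 0.0854, 0.132, 0.489 and 0.0657), and the calls of ADARB1, NCBP1, LIMD1, TUT7, TNRC6A, ERI1, OAS3 and PANK2 were lost too (differences 0.02, -0.08, 0.16, -0.14, 0.31, 0.33, -0.24 and 0.01). Array weights raised the count over the related lists to 41, against 26. The RNF43 difference was 0.48 with both arrays numbered 3 left out and did not pass (limma adjusted p = 0.0535).

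Same-numbered arrays of the groups had correlations of deviations of 0.19, 0.08 and 0.31. Each RNF43 siRNA array correlated best with the control siRNA array of its own number. Control siRNA replicate 2 instead correlated best with RNF43 siRNA replicate 1 (0.13). Sample titles do not name pairs, so the reported fit took none, and whether the numbers mark pairs was not settled. A replicate block gave 7 members with XPO5 added (limma adjusted p = 0.0239), 9 member probe sets, 44 list genes, 3908 genes and 6370 probe sets.

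Differences that changed sign did not pass on the other side, and apart from AGO4 and PRKRA had not passed as reported. The AGO1 difference, by gene and by 218287_s_at, was -0.0002 to 0.0627 without an array, and -0.0266 with the mean of probe sets above the filter. AGO4 gave -0.028 with the mean of probe sets. PRKRA gave -0.0579 once probe sets named _x_at or _s_at were set aside. For AGO3, 241091_at gave -0.4595 to 0.0494 without an array, 228932_at -0.1137 to 0.2021 and 235782_at -0.123 to 0.2354. PRKRA 237107_at gave 0.0701 with array weights, 0.2108 with both arrays numbered 3 left out and -0.2631 to 0.221 without an array. With the mean of probe sets DNAJA2 gave 0.0201, RANBP1 0.0445 and XPO1 -0.3229, and with those above the filter 0.0201, 0.1784 and -0.1598. RANBP1 gave -0.0952 to 0.0149 without an array, and RIGI 0.1198 with _x_at and _s_at probe sets set aside. The cause was not tested in any of these. Signal over background limits the 8 member probe sets below the filter, and 3 arrays a group limit all intervals.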
